A study of Arabidopsis thaliana with 24 samples.

Results

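The genes described here are 36 of the 10349 genes measured in both tables of the *Ch1* series, and they share a late rise in transcript level at both light levels. They were chosen by measured values: on the scale of log2(normalized value + 1), the mean of 3 libraries at 1 h lay within 0.4 of that at 0 h, and the mean at 4 h lay at least 0.8 above that at 0 h, in low light (LL) and in high light (HL) alike. A gene also needed a group mean of at least 20 normalized counts in each table, read as at least 1 of the 4 group means. The levels at 0, 1 and 4 h and every contrast among them are therefore a description of how the genes were picked, and no test of those contrasts supports anything. Only the libraries at 2 h took no part in the choice. *Ch1* is an Arabidopsis line in the Col-0 background that lacks chlorophyll b, and no wild type is part of these groups. Whole 2-week-old seedlings, grown in long days on plates with sucrose, were first held in water. They were then kept at 1000 µE (HL 1, 2 and 4 h) or at 30 µE (LL 1, 2 and 4 h). HL 0 h and LL 0 h are the libraries before that exposure, and each of the 8 groups has 3 libraries. No group was kept at the growth light for the same times, so an effect of light and one of time cannot be told apart. Bulk MARS-seq counts the 3′ end of a transcript, so that a level in CPM (counts scaled to the library total) carries no transcript length and is not compared between genes here. All CPM values are scaled by the trimmed mean of M-values (TMM) over the 24 libraries.

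The genes belong to no single pathway. They include enzymes and proteins that loosen and crosslink the primary cell wall, among them expansins, which let wall polymers slip past each other, xyloglucan endotransglucosylase/hydrolases (XTHs), which cut and rejoin xyloglucan chains, and class III peroxidases, which oxidise phenolic compounds in the wall. Others act in the synthesis of monolignols and related phenolics, in the chloroplast, in nitrogen assimilation and in the synthesis of auxin, sterols and ascorbate. All 36 matched a protein-coding locus of the TAIR10.1 annotation, spread over the 5 chromosomes (10 on chromosome 1, 7 on 2, 8 on 3, 2 on 4 and 9 on 5), and 21 have a symbol there.

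Library totals ran from 1617051 to 2070855 counts in HL and from 1163870 to 2061753 counts in LL. The mean level of the 36 genes over all libraries ran from 8.4 to 568.6 CPM (median 30.5), beside a median of 15.3 CPM over all genes in both tables, and the level limit of the rule sets part of that gap. Single libraries held as few as 2 counts of a member (AT2G25510) and as many as 1536 (AT1G51200), so counting error is large for the lowest members. Replicate 2 of LL 2 h stood apart from its group: the chi-square per degree of freedom was 9.25 and 10.1 against replicates 1 and 3, and 2.51 between those. The HL and LL libraries already differed at 0 h, where 36 genes were called higher and 428 lower in HL 0 h than in LL 0 h, none of them a late-rise gene (edgeR quasi-likelihood test, with 3 of the 36 at an unadjusted p under 0.05 and 0 called by DESeq2). The labels do not say what else set the HL libraries apart from the LL libraries. An effect of light level and any other difference between the 2 sets of libraries cannot be told apart in a direct contrast. The summed level of 7 leaf marker genes of photosynthesis was 25560.2 to 31576 CPM at 4 h of HL against 25662 to 32047 CPM at 0 h, and 15521 to 18297 CPM at 4 h of LL against 34609 to 37604 CPM at 0 h. The level sum in HL hides opposite log2 fold changes at 4 h. GAPA (1.60), GAPB (0.78), CA1 (0.61), RBCS1A (0.51) and RCA (0.50) were above 0, and PSAD1 (-0.66) and PSBO1 (-0.835) below it. At 4 h of LL all 7 were below 0. The summed level of 9 root markers (of 11 listed) was 453 to 491 CPM at 4 h of HL against 759.9 to 1114 CPM at 0 h, and 324 to 414 CPM at 4 h of LL against 636 to 805 CPM at 0 h. Within the root list PRP3 went the other way, with log2 fold changes of 1.3 ± 0.34 at 4 h of HL and 0.94 ± 0.29 at 4 h of LL. PRP1 (0.71 in HL and 2.91 in LL, at a mean of 1.5 CPM) and SCR (0.505 and 0.11) were also above 0. The root sum is mostly TIP2;2, at a mean of 432.1 CPM beside 57.8 CPM for CASP1, the next highest. TIP2;2 changed by -1.26 at 4 h of HL and of LL. The guard cell list was measured by FAMA (RefSeq symbol FMA) alone of 3 genes. FAMA stood at 48.6 to 55.3 CPM at 4 h of HL against 26.5 to 32.2 CPM at 0 h, with no overlap. In LL it stood at 51.1 to 56.3 CPM at 4 h against 24.3 to 32.7 CPM at 0 h, again with no overlap. At 1 h it was at 23.2 to 29.9 CPM in HL but already at 34.8 to 43.6 CPM in LL, above all LL 0 h libraries. Its level in LL had thus risen by 1 h. Some members also had all 1 h libraries above all 0 h libraries, such as APO2 and AT1G51200 at both light levels. Of 4 vascular markers 3 were measured, at 312 to 330.4 CPM at 4 h of HL against 348 to 374 CPM at 0 h, and 279 to 313 CPM at 4 h of LL against 330.2 to 392 CPM at 0 h, and of 6 markers of dividing cells 0 were in both tables. In whole seedlings, more RNA per cell and more cells of a type cannot be told apart, and the part of these shifts in the late rise was not tested.

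At 4 h, 26 of the 36 genes were called higher in HL and 25 in LL, against the 0 h libraries of the same series, where a call is a Benjamini-Hochberg adjusted p under 0.05 in the edgeR quasi-likelihood test and a change of at least 2-fold. Over all genes the shares called higher were 7.51% in HL and 5.74% in LL, and since the rule used these contrasts nothing is read from the gap. Both calls were made for 20 of the genes, the HL call alone for 6, the LL call alone for 5 and neither for 5. The median log2 fold change at 4 h was 1.27 in HL (0.71 to 3.02) and 1.14 in LL (0.82 to 1.80), beside 0.04 and -0.01 over all genes. All 3 libraries of 4 h lay above all 3 of 0 h for 34 genes in HL and 35 in LL, beside 21.9% and 21.4% of all genes. The exceptions were XTH14 and AT2G25510 in HL and AT2G36430 in LL. The plot of time courses shows the same order in nearly every gene, with the fitted change at 2 h between those at 1 h and 4 h in 35 genes of HL and 33 of LL. The limits at 1 h and 4 h favour that order in advance, so nothing is read from these counts.

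**Figure D1:**
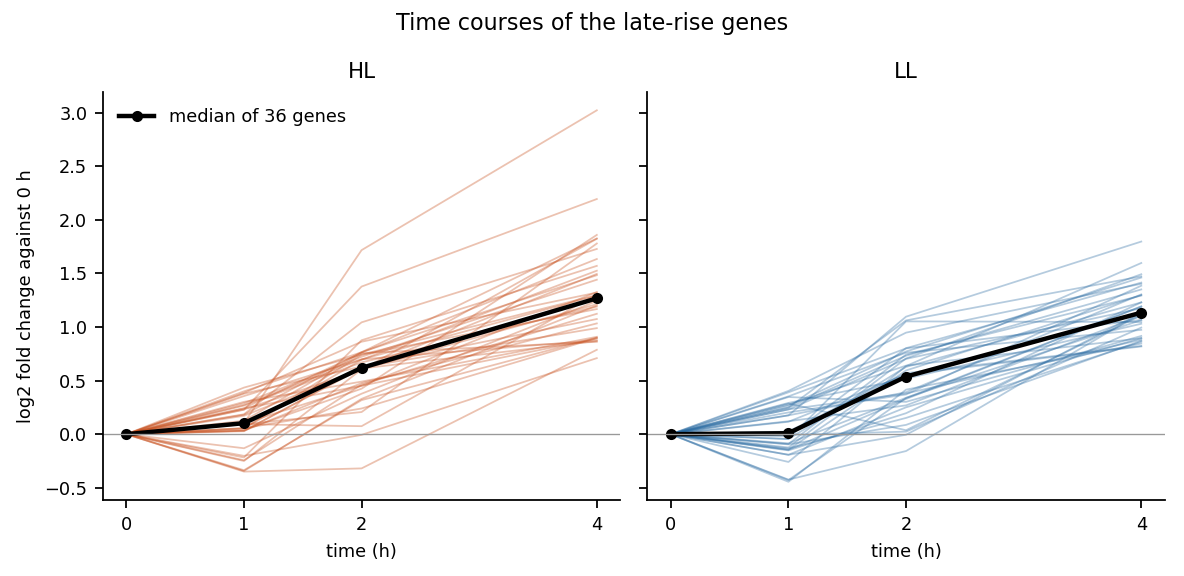
Time courses of the 36 late-rise genes, with the log2 fold change against 0 h of the same series on the vertical axis and time in hours on the horizontal axis, HL in the left panel and LL in the right. Thin lines are genes and the black line is their median, which stood at 0.10, 0.62 and 1.27 at 1, 2 and 4 h of HL and at 0.01, 0.54 and 1.14 at 1, 2 and 4 h of LL.

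The wall-loosening genes among the 36 are EXPA1, EXPA18, XTH14 and XTH31. EXPA1 encodes an alpha-expansin. EXPA1 in HL had 61.6, 40.2 and 64.6 CPM before exposure, then 60.9, 52.4 and 67.0 after 1 h, 72.6, 72.5 and 88.7 after 2 h and 133, 155 and 143 after 4 h. EXPA1 in LL had 43.6, 57.6 and 53.4 CPM before exposure, then 60.2, 65.8 and 51.8 after 1 h, 66.6, 59.3 and 71.2 after 2 h and 99.0, 117 and 190.2 after 4 h. At both light levels its 4 h libraries lay above all earlier ones, and most of the change came after 2 h. EXPA1 had a fitted log2 fold change at 4 h of 1.33 ± 0.17 (SE) in HL and 1.39 ± 0.20 (SE) in LL. EXPA18 is an expansin known from root hairs. EXPA18 in HL had 9.05, 13.2 and 9.80 CPM before exposure, then 8.20, 15.7 and 11.8 after 1 h, 18.5, 15.4 and 15.4 after 2 h and 26.4, 36.1 and 29.5 after 4 h. EXPA18 in LL had 6.75, 13.6 and 5.58 CPM before exposure, then 11.3, 8.01 and 5.49 after 1 h, 20.4, 14.8 and 19.4 after 2 h and 18.1, 17.1 and 20.4 after 4 h. In LL the level at 4 h overlapped that at 2 h, while in HL all 4 h libraries lay above those at 2 h. EXPA18 had a fitted log2 fold change at 4 h of 1.5 ± 0.25 (SE) in HL and 1.05 ± 0.31 (SE) in LL.

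XTH31 belongs to the XTH family, whose enzymes act on xyloglucan, the main hemicellulose that ties cellulose microfibrils together. XTH31 in HL had 23.2, 20.5 and 38.1 CPM before exposure, then 28.1, 23.8 and 33.8 after 1 h, 50.9, 44.6 and 41.0 after 2 h and 62.3, 140.2 and 42.2 after 4 h. XTH31 in LL had 15.3, 18.6 and 19.1 CPM before exposure, then 19.6, 15.1 and 10.2 after 1 h, 15, 20.8 and 16.7 after 2 h and 27.5, 38.8 and 50.9 after 4 h. Replicate 2 of HL 4 h was far above the other libraries of its group, and the 4 h libraries of HL and LL overlapped. XTH31 had a fitted log2 fold change at 4 h of 1.53 ± 0.33 (SE) in HL and 1.14 ± 0.25 (SE) in LL. XTH14 is from the same family. XTH14 in HL had 19.8, 30.0 and 53.1 CPM before exposure, then 27.5, 48.6 and 29.4 after 1 h, 65.7, 51.1 and 45.6 after 2 h and 50.5, 87.3 and 72.9 after 4 h. XTH14 in LL had 28.2, 35.6 and 23.1 CPM before exposure, then 33.3, 34.7 and 35.3 after 1 h, 61.2, 31.1 and 48.5 after 2 h and 51.7, 67.2 and 80.9 after 4 h. Its HL libraries at 4 h and at 0 h overlapped, since replicate 3 of HL 0 h had 53.1 CPM and replicate 1 of HL 4 h had 50.5 CPM. XTH14 had a fitted log2 fold change at 4 h of 0.99 ± 0.29 (SE) in HL and 1.18 ± 0.23 (SE) in LL.

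The rest of these families did not move as a block. At 4 h of HL, 839 of all 11166 genes were called higher and 912 lower. At 4 h of LL, 627 of 10930 were called higher and 1177 lower. Of 18 expansin genes in both tables, the 2 members included, 7 were called higher and 4 lower at 4 h of HL, and 5 higher and 5 lower at 4 h of LL, with median log2 fold changes of 0.80 and 0.66. EXLA2, an expansin-like gene, fell at 4 h, with log2 fold changes of -4.70 ± 0.35 in HL and -4.14 ± 0.25 in LL, while EXLB1 rose with 1.66 ± 0.17 in HL and 1.88 ± 0.27 in LL. Of 19 XTH genes, 3 were called higher and 3 lower at 4 h of HL, and 4 higher and 6 lower at 4 h of LL, with medians of 0.22 and -0.26. XTR6, the annotated gene next to XTH14 on chromosome 4, changed by -3.23 ± 0.18 in HL and -3.14 ± 0.19 in LL, the opposite direction to XTH14.

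**Figure D2:**
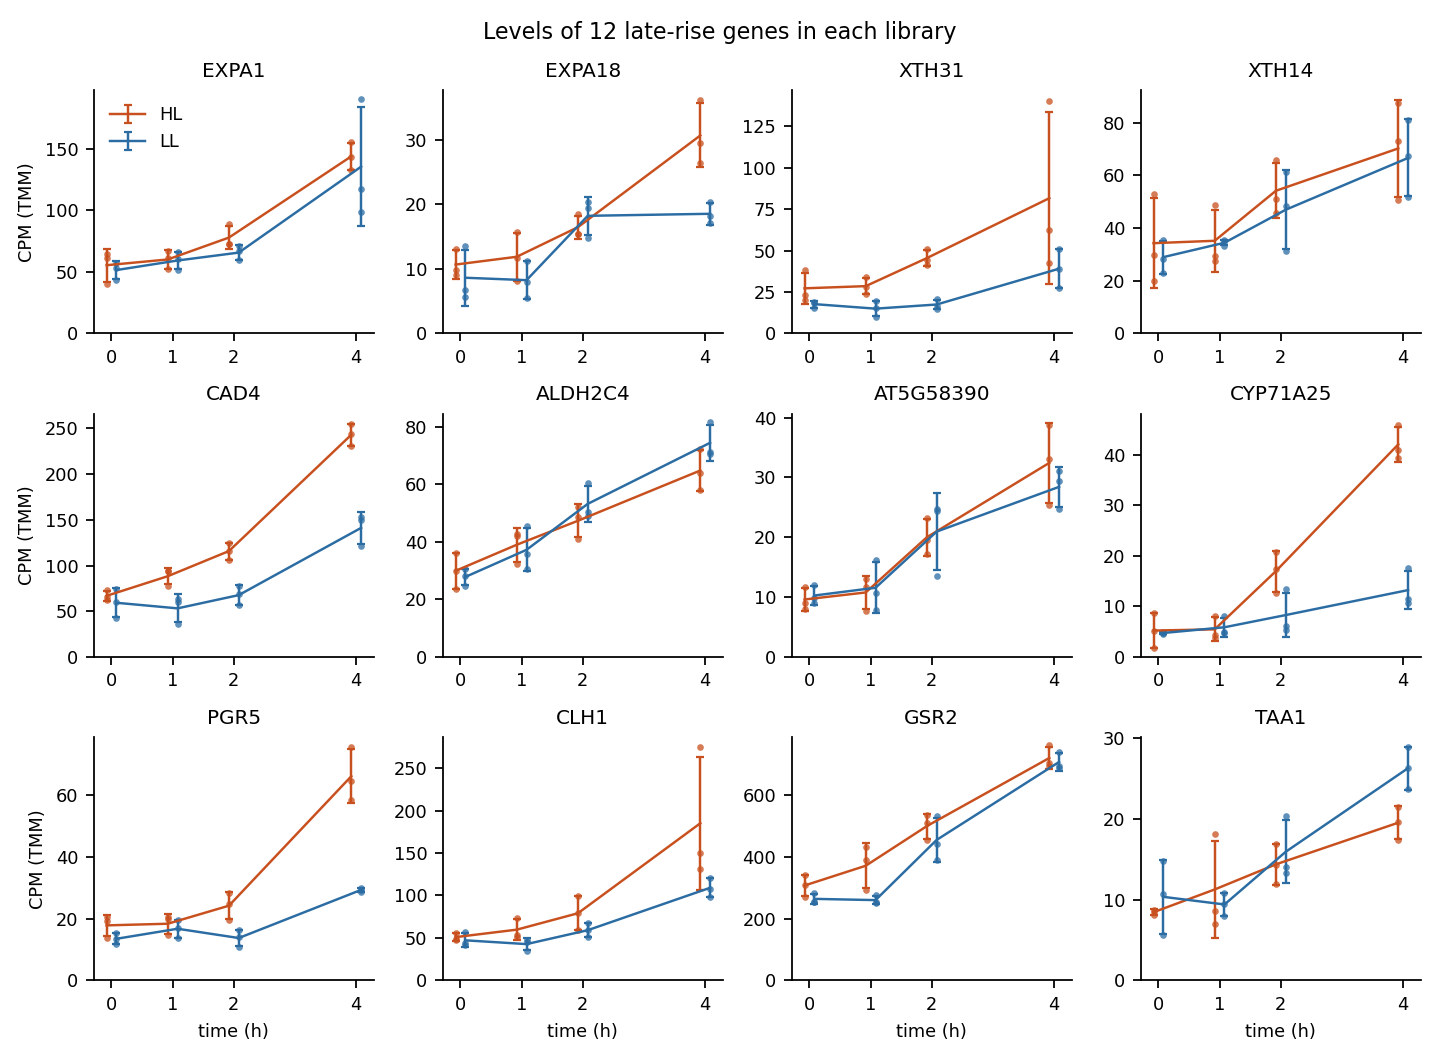
Levels of 12 late-rise genes in CPM against time in hours, with HL in orange and LL in blue. Small points are libraries, lines join group means and bars are SD over 3 libraries. CAD4, PGR5 and CYP71A25 separate between HL and LL by 4 h, while XTH14, AT5G58390 and ALDH2C4 overlap between HL and LL at every time.

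AT5G58390, a class III peroxidase gene, ranked highest of the 36 by the smaller of its changes at 4 h on the scale of the rule (1.65 in HL and 1.4 in LL). AT5G58390 in HL had 9.05, 11.7 and 8.07 CPM before exposure, then 7.62, 13.0 and 11.8 after 1 h, 23.3, 17.2 and 19.5 after 2 h and 38.7, 33.2 and 25.5 after 4 h. AT5G58390 in LL had 9.82, 9.03 and 11.9 CPM before exposure, then 16.2, 10.7 and 7.85 after 1 h, 13.6, 24.5 and 24.8 after 2 h and 24.8, 29.5 and 31.1 after 4 h. Its HL and LL libraries overlapped at every time. AT5G58390 had a fitted log2 fold change at 4 h of 1.73 ± 0.26 (SE) in HL and 1.47 ± 0.28 (SE) in LL. AT3G17070, a peroxidase gene on chromosome 3, averaged 36.8 ± 5.65 CPM at 4 h of HL against 20.6 ± 8.17 CPM at 0 h, and 34.7 ± 1.72 CPM at 4 h of LL against 13.9 ± 0.67 CPM at 0 h. Its level at 2 h of HL was 17.0 ± 2.20 CPM, no higher than at 0 h, so that its whole change fell after 2 h in HL. Over the 44 class III peroxidase genes in both tables, 9 were called higher and 2 lower at 4 h of HL, and 15 higher and 6 lower at 4 h of LL. The 3 most abundant others were at log2 fold changes of 0.66 ± 0.13 (PRXR1), 1.16 ± 0.19 (AT5G64120) and 1.14 ± 0.14 (AT2G37130) at 4 h of HL. In LL the same genes stood at 1.01 ± 0.12, 1.21 ± 0.28 and 1.32 ± 0.19, and the call of PRXR1 sits at the 2-fold limit. Over all genes 7.51% were called higher at 4 h of HL and 5.74% at 4 h of LL. Called lower were 912 of 11166 and 1177 of 10930.

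CAD4 (RefSeq symbol ATCAD4) encodes a cinnamyl alcohol dehydrogenase, which makes monolignols, the building blocks of lignin, from their aldehydes. CAD4 in HL had 62.2, 73.1 and 65.2 CPM before exposure, then 77.9, 93.5 and 93.5 after 1 h, 106, 116 and 125 after 2 h and 255, 230.4 and 244 after 4 h. CAD4 in LL had 60.1, 74.5 and 43.0 CPM before exposure, then 60.2, 35.6 and 63.5 after 1 h, 77.5, 56.4 and 69.0 after 2 h and 121, 153 and 150.0 after 4 h. At 4 h every HL library lay above every LL library, and the same was true at 1 h and at 2 h. CAD4 had a fitted log2 fold change at 4 h of 1.83 ± 0.14 (SE) in HL and 1.23 ± 0.20 (SE) in LL. ALDH2C4 encodes an aldehyde dehydrogenase that turns sinapaldehyde and coniferaldehyde into sinapic and ferulic acid, and so uses the same aldehydes as CAD4. ALDH2C4 in HL had 36.2, 30.0 and 23.6 CPM before exposure, then 32.2, 42.7 and 42.1 after 1 h, 48.7, 41.0 and 52.3 after 2 h and 64.0, 58.2 and 72.3 after 4 h. ALDH2C4 in LL had 28.2, 30.5 and 24.7 CPM before exposure, then 35.8, 45.4 and 30.6 after 1 h, 50.3, 49.0 and 60.4 after 2 h and 70.4, 81.7 and 71.3 after 4 h. HL and LL libraries of this gene overlapped at every time. ALDH2C4 had a fitted log2 fold change at 4 h of 1.08 ± 0.19 (SE) in HL and 1.4 ± 0.17 (SE) in LL. The locus of ALDH2C4 overlaps that of MBF1C on the other strand, whose log2 fold change was 2.73 at 4 h of HL and 0.21 at 4 h of LL. Whether counting used strand is not given in the sources used here. In all, 6 members are overlapped by another annotated gene (ALDH2C4, HINT3, EXPA18, DiT2.2, HCHIB and ICR1), and reads of such pairs may not be told apart. GT72B1 (also called UGT72B1), a glucosyltransferase that acts on phenolics, averaged 109 ± 25.9 CPM at 4 h of HL against 39.0 ± 4.77 CPM at 0 h, and 85.4 ± 13.9 CPM at 4 h of LL against 36.8 ± 7.08 CPM at 0 h. GT72B1 had a fitted log2 fold change at 4 h of 1.44 ± 0.21 (SE) in HL and 1.19 ± 0.17 (SE) in LL.

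The other enzymes of monolignol synthesis were set beside CAD4 and ALDH2C4 from a list drawn up after the 36 genes were known. Of 14 such genes in both tables, 0 were called higher and 2 lower at 4 h of HL, and 0 higher and 3 lower at 4 h of LL (edgeR quasi-likelihood test), with medians of 0.14 and 0.05. DESeq2 also called 0 of them higher, and at an unadjusted p under 0.05 there were 3 higher in HL and 3 in LL. The genes called lower encode phenylalanine ammonia-lyase, the entry enzyme of the pathway: PAL2 fell with -1.35 ± 0.20 in HL and -1.56 ± 0.21 in LL, PAL4 with -1.08 ± 0.29 and -2.08 ± 0.35, and PAL1 with -1.75 ± 0.23 in LL. CAD5, the other main cinnamyl alcohol dehydrogenase of the list, stood at 0.26 ± 0.14 in HL and 0.53 ± 0.13 in LL, below the fold limit. For comparison, 912 of all 11166 genes were called lower at 4 h of HL and 1177 of 10930 at 4 h of LL. The shares called higher were 7.51% and 5.74%.

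PGR5 is a thylakoid protein required for cyclic electron flow around photosystem I. PGR5 in HL had 19.2, 20.5 and 13.8 CPM before exposure, then 19.9, 20.5 and 14.7 after 1 h, 24.9, 19.6 and 28.2 after 2 h and 75.7, 64.6 and 58.4 after 4 h. PGR5 in LL had 11.7, 15.2 and 13.6 CPM before exposure, then 13.7, 16.9 and 19.6 after 1 h, 10.9, 16.3 and 14.0 after 2 h and 28.6, 29.5 and 30.0 after 4 h. No HL library overlapped any LL library at 2 h or 4 h, and the LL libraries at 2 h overlapped those at 0 h. PGR5 had a fitted log2 fold change at 4 h of 1.86 ± 0.21 (SE) in HL and 1.11 ± 0.22 (SE) in LL. AT2G26500, annotated as petM, a small subunit of the cytochrome b6f complex, averaged 30.1 ± 5.82 CPM at 4 h of HL against 12.1 ± 1.85 CPM at 0 h, and 21.7 ± 1.48 CPM at 4 h of LL against 11.1 ± 5.15 CPM at 0 h. APO2, an RNA-binding protein of the APO family of chloroplast proteins, averaged 266 ± 29.4 CPM at 4 h of HL against 104 ± 15.9 CPM at 0 h, and 164 ± 8.97 CPM at 4 h of LL against 83.2 ± 6.22 CPM at 0 h. Of its change at 4 h, 65.3% in HL and 78.1% in LL was present at 2 h, while PGR5 had 22.8% in HL and 3.3% in LL. DiT2.2, a gene of the plastid dicarboxylate transporter family, averaged 76.5 ± 11.8 CPM at 4 h of HL against 30.4 ± 3.83 CPM at 0 h, and 56.8 ± 2.43 CPM at 4 h of LL against 27.8 ± 2.84 CPM at 0 h. The log2 fold changes at 4 h were 1.32 ± 0.15 in HL and 0.97 ± 0.14 in LL for APO2, and 1.3 ± 0.17 and 1.03 ± 0.18 for DiT2.2.

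CLH1 encodes chlorophyllase, which removes the phytol tail of chlorophyll and is induced by jasmonate and wounding. CLH1 in HL had 49.2, 56.3 and 47.3 CPM before exposure, then 53.9, 51.3 and 73.9 after 1 h, 78.9, 99.3 and 59.0 after 2 h and 149.8, 275 and 131 after 4 h. CLH1 in LL had 43.6, 56.5 and 41.4 CPM before exposure, then 45.5, 48.0 and 34.5 after 1 h, 51.0, 67.5 and 58.8 after 2 h and 98.5, 108 and 121 after 4 h. Replicate 2 of HL 4 h was again the highest of its group. CLH1 had a fitted log2 fold change at 4 h of 1.82 ± 0.25 (SE) in HL and 1.19 ± 0.17 (SE) in LL. Of the 3 other genes of chlorophyll breakdown measured in both tables (list drawn up after the 36 genes were known), NYC1 was called higher at 4 h of HL (2.09 ± 0.21, and 0.86 ± 0.22 in LL) and ACD1, which encodes pheophorbide a oxygenase, at 4 h of LL (0.69 ± 0.16 in HL and 1.12 ± 0.17 in LL). Pheophytinase (PPH) stood at 0.30 ± 0.15 in HL and 0.75 ± 0.14 in LL and was not called. The seedlings lack chlorophyll b, the substrate of NYC1.

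GSR2 (GLN1;2) encodes a cytosolic glutamine synthetase, which fixes ammonium into glutamine. GSR2 in HL had 271, 308 and 341 CPM before exposure, then 291, 388 and 433 after 1 h, 455, 533 and 509 after 2 h and 704, 761 and 692 after 4 h. GSR2 in LL had 284, 254 and 253 CPM before exposure, then 275, 254 and 249 after 1 h, 441, 389 and 532 after 2 h and 692, 687 and 739 after 4 h. At 4 h and at 2 h the light levels overlapped, while at 1 h all HL libraries lay above those of LL. GSR2 had a fitted log2 fold change at 4 h of 1.19 ± 0.14 (SE) in HL and 1.42 ± 0.13 (SE) in LL. Of the 4 other glutamine synthetase genes in both tables, 0 were called in either direction at 4 h of HL or of LL by the same test. GLN1;1 was nearest to GSR2, at 0.81 ± 0.19 in HL and 0.77 ± 0.21 in LL, with adjusted p of 0.0032 and 0.00826 but under 2-fold. The plastid form GS2 stood at 0.50 ± 0.11 in HL and -0.12 ± 0.13 in LL. At an unadjusted p under 0.05 there were 2 of the 4 higher in HL and 1 in LL, and DESeq2 called 0. Among all genes, 839 of 11166 were called higher and 912 lower at 4 h of HL. In LL these were 627 and 1177 of 10930.

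TAA1 is the tryptophan aminotransferase of the main route to auxin, through indole-3-pyruvate. TAA1 in HL had 8.48, 8.77 and 8.07 CPM before exposure, then 7.03, 8.64 and 18.1 after 1 h, 14.3, 11.9 and 16.9 after 2 h and 17.4, 21.5 and 19.7 after 4 h. TAA1 in LL had 14.7, 10.7 and 5.58 CPM before exposure, then 10.8, 8.01 and 9.42 after 1 h, 20.4, 13.3 and 14.0 after 2 h and 23.6, 29.0 and 26.2 after 4 h. All 4 h libraries lay above all 0 h libraries at both light levels, and at 4 h those of LL lay above those of HL. TAA1 had a fitted log2 fold change at 4 h of 1.17 ± 0.31 (SE) in HL and 1.3 ± 0.28 (SE) in LL. From a list drawn up in the same way, YUC6, which encodes a flavin monooxygenase of the next step, was called higher at 4 h of HL (1.99 ± 0.47) and not at 4 h of LL (0.97 ± 0.37), whereas YUC5 was called lower at both (-2.17 ± 0.42 in HL and -2.13 ± 0.46 in LL). YUC2, the other gene of the list measured, stood at 1.64 ± 0.69 in HL and 1.13 ± 0.81 in LL and was not called. The YUC genes had low levels, with means of 5.1 CPM for YUC6, 4.6 CPM for YUC5 and 2.4 CPM for YUC2.

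VTC5, which encodes one of the pair of GDP-L-galactose phosphorylases of ascorbate synthesis, averaged 44.4 ± 2.39 CPM at 4 h of HL against 23.0 ± 1.12 CPM at 0 h, and 45.6 ± 3.09 CPM at 4 h of LL against 25.2 ± 12.0 CPM at 0 h. Its change passed the adjusted p at both light levels and missed the 2-fold limit (0.91 ± 0.17 in HL and 0.82 ± 0.25 in LL). Of the rest of that pathway (list drawn up after the 36 genes were known), the partner gene VTC2 was called higher, with 2.69 ± 0.17 at 4 h of HL and 1.56 ± 0.16 at 4 h of LL, while CYT1 (VTC1), which acts earlier in the pathway, stood at -0.85 ± 0.14 and -0.38 ± 0.13. CYP710A2 is a cytochrome P450 that introduces the double bond of stigmasterol in the sterol side chain. CYP710A2 in HL had 19.2, 24.1 and 27.7 CPM before exposure, then 25.8, 17.8 and 16.6 after 1 h, 36.6, 37.5 and 36.4 after 2 h and 56.7, 59.9 and 52.6 after 4 h. CYP710A2 in LL had 15.3, 19.8 and 28.7 CPM before exposure, then 14.7, 24.9 and 14.1 after 1 h, 34.0, 31.9 and 30.7 after 2 h and 64.3, 75.0 and 51.4 after 4 h. CYP710A2 had a fitted log2 fold change at 4 h of 1.21 ± 0.19 (SE) in HL and 1.60 ± 0.23 (SE) in LL. CYP710A1, the neighbouring and closely related gene, stood at -0.02 ± 0.29 in HL and 0.14 ± 0.25 in LL. Reads at the 3′ ends of such related genes may be split between them, and the counting of shared reads is not given in the sources used here. Of 7 other sterol genes in both tables, from a list drawn up in the same way, 0 were called at 4 h of HL. At 4 h of LL 0 were called higher and 2 lower, CAS1 (-1.06 ± 0.32) and SMT1 (-2.54 ± 0.62). Among all genes, 839 of 11166 were called higher and 912 lower at 4 h of HL. In LL these were 627 and 1177 of 10930.

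CYP71A25, a cytochrome P450 of the large 71A subfamily, had the widest gap between its 4 h changes in HL and LL. CYP71A25 in HL had 1.70, 8.77 and 5.19 CPM before exposure, then 8.20, 3.78 and 4.40 after 1 h, 12.7, 20.8 and 17.4 after 2 h and 41.0, 46.0 and 39.3 after 4 h. CYP71A25 in LL had 4.91, 4.52 and 4.78 CPM before exposure, then 4.90, 8.01 and 4.71 after 1 h, 6.12, 13.3 and 5.39 after 2 h and 17.6, 11.4 and 10.7 after 4 h. At 4 h every HL library was above every LL library, whereas at 0 h and 1 h they overlapped. CYP71A25 had a fitted log2 fold change at 4 h of 3.02 ± 0.34 (SE) in HL and 1.46 ± 0.38 (SE) in LL. Over the 84 cytochrome P450 genes in both tables, 24 were called higher and 7 lower at 4 h of HL, and 15 higher and 10 lower at 4 h of LL. Among all genes, 839 of 11166 were called higher and 912 lower at 4 h of HL. In LL these were 627 and 1177 of 10930. TLL1, named as a triacylglycerol lipase-like gene, had the next widest gap. TLL1 in HL had 5.65, 7.31 and 6.34 CPM before exposure, then 10.6, 4.32 and 7.83 after 1 h, 15.4, 19.0 and 16.9 after 2 h and 23.6, 41.9 and 25.5 after 4 h. TLL1 in LL had 7.98, 8.47 and 5.58 CPM before exposure, then 4.41, 5.34 and 7.06 after 1 h, 4.08, 15.6 and 10.2 after 2 h and 12.7, 11.9 and 16.1 after 4 h. TLL1 had a fitted log2 fold change at 4 h of 2.20 ± 0.31 (SE) in HL and 0.85 ± 0.36 (SE) in LL. Its LL change did not pass the adjusted p (0.0868, edgeR quasi-likelihood test). Both genes had few counts, 3 in the lowest of all 24 libraries for CYP71A25 and 6 for TLL1.

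HCHIB, a basic chitinase also known as PR3, was the member whose change in LL exceeded that in HL by most. HCHIB in HL had 104, 101 and 184 CPM before exposure, then 103, 141 and 156 after 1 h, 264, 171 and 173 after 2 h and 211, 268 and 252 after 4 h. HCHIB in LL had 115, 119 and 72.5 CPM before exposure, then 115, 97.0 and 135 after 1 h, 281, 142 and 226 after 2 h and 249, 495 and 333 after 4 h. Replicate 2 of LL 4 h had the highest level of all 24 libraries. The overlapping gene AT3G12502, at a mean of 2.2 CPM, changed by 0.19 at 4 h of HL and 1.89 at 4 h of LL on the log2 scale. HCHIB had a fitted log2 fold change at 4 h of 0.87 ± 0.22 (SE) in HL and 1.80 ± 0.26 (SE) in LL. MYB28 is a transcription factor that activates the synthesis of aliphatic glucosinolates. MYB28 averaged 37.5 ± 5.31 CPM at 4 h of HL against 15.9 ± 3.11 CPM at 0 h, and 36.3 ± 2.44 CPM at 4 h of LL against 17.6 ± 5.36 CPM at 0 h. The 11 genes of the glucosinolate list, MYB28 included, gave 1 call higher and 3 lower at 4 h of HL, and 1 higher and 2 lower at 4 h of LL, with medians of -0.36 and 0.02. Among the most abundant enzymes of that list, CYP83A1 of the aliphatic branch stood at -0.60 ± 0.29 in HL and -0.55 ± 0.17 in LL, and CYP83B1 of the indolic branch at 0.02 ± 0.16 and 0.72 ± 0.19, neither of them called. Among all genes, 839 of 11166 were called higher and 912 lower at 4 h of HL. In LL these were 627 and 1177 of 10930.

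AT1G51200, which encodes a zinc finger protein with A20 and AN1 domains, averaged 692 ± 34.4 CPM at 4 h of HL against 367 ± 42.8 CPM at 0 h, and 800.3 ± 56.0 CPM at 4 h of LL against 428 ± 21.9 CPM at 0 h. HINT3, a histidine triad nucleotide-binding protein, averaged 56.7 ± 6.08 CPM at 4 h of HL against 19.4 ± 6.12 CPM at 0 h, and 42.2 ± 3.46 CPM at 4 h of LL against 16.8 ± 7.51 CPM at 0 h. The log2 fold change of HINT3 was 1.48 ± 0.20 in HL and 1.29 ± 0.26 in LL, second among the 36 genes by the smaller of its changes on the scale of the rule. ICR1, a scaffold that binds ROP GTPases, averaged 29.8 ± 0.64 CPM at 4 h of HL against 15.9 ± 1.77 CPM at 0 h, and 29.1 ± 6.90 CPM at 4 h of LL against 15.7 ± 2.54 CPM at 0 h. AT5G03140, a lectin receptor kinase gene, averaged 29.1 ± 4.11 CPM at 4 h of HL against 15.1 ± 1.64 CPM at 0 h, and 32.3 ± 6.22 CPM at 4 h of LL against 12.4 ± 2.60 CPM at 0 h. AT1G51200 and ICR1 were among the 5 genes called at neither light level, with VTC5, AT2G40020 and AT2G25510. AT5G41400, a RING finger gene, averaged 32.2 ± 10.2 CPM at 4 h of HL against 14.3 ± 2.87 CPM at 0 h, and 29.4 ± 1.73 CPM at 4 h of LL against 10.4 ± 1.4 CPM at 0 h. AT1G32520, a gene for a TLDc domain protein, averaged 51.2 ± 9.54 CPM at 4 h of HL against 14.7 ± 3.27 CPM at 0 h, and 21.1 ± 2.22 CPM at 4 h of LL against 9.20 ± 3.55 CPM at 0 h. The fitted change of AT1G32520 was 1.78 ± 0.23 in HL and 1.23 ± 0.31 in LL. AT3G56020, a gene for ribosomal protein L41, averaged 28.0 ± 6.92 CPM at 4 h of HL against 14.7 ± 3.62 CPM at 0 h, and 31.5 ± 9.63 CPM at 4 h of LL against 14.2 ± 4.72 CPM at 0 h.

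The remaining members have no symbol and no role that can be given here with certainty. AT2G33250 averaged 152 ± 28.0 CPM at 4 h of HL against 47.7 ± 0.83 CPM at 0 h, and 71.8 ± 10.2 CPM at 4 h of LL against 39.0 ± 5.73 CPM at 0 h. AT2G36430, which holds a DUF247 domain, averaged 63.9 ± 15.2 CPM at 4 h of HL against 20.8 ± 1.81 CPM at 0 h, and 41.2 ± 8.84 CPM at 4 h of LL against 22.6 ± 10.9 CPM at 0 h. Both had larger fold changes in HL (1.64 ± 0.16 for AT2G33250 and 1.57 ± 0.21 for AT2G36430) than in LL (0.88 ± 0.22 and 0.90 ± 0.33). AT5G35732 averaged 88.1 ± 13.1 CPM at 4 h of HL against 41.8 ± 3.93 CPM at 0 h, and 85.3 ± 8.37 CPM at 4 h of LL against 41.1 ± 11.7 CPM at 0 h. AT1G24577 averaged 14.2 ± 2.85 CPM at 4 h of HL against 5.52 ± 1.25 CPM at 0 h, and 14.1 ± 3.95 CPM at 4 h of LL against 6.55 ± 1.54 CPM at 0 h. The fitted changes of this gene were 1.31 ± 0.36 in HL and 1.11 ± 0.30 in LL, and the LL call was lost with DESeq2. AT3G50685 averaged 490.4 ± 73.8 CPM at 4 h of HL against 202 ± 18.7 CPM at 0 h, and 274 ± 39.1 CPM at 4 h of LL against 154 ± 17.1 CPM at 0 h. AT2G40020, annotated as related to a nucleolar histone methyltransferase, averaged 36.5 ± 5.83 CPM at 4 h of HL against 18.9 ± 5.54 CPM at 0 h, and 27.6 ± 3.05 CPM at 4 h of LL against 15.1 ± 2.1 CPM at 0 h. AT2G25510 was the least certain of the 36: its 4 h changes of 0.71 ± 0.44 in HL and 1.00 ± 0.44 in LL had adjusted p of 0.266 and 0.102, and its libraries at 0 h of LL held 9.21, 2.26 and 12.8 CPM.

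The 2 h libraries were not part of the choice, though the changes at 1 h and 4 h on either side of them were fixed by it. Called higher at 2 h (same test and limits) were 3 of the 36 genes in HL (AT5G58390, CYP71A25 and TLL1), beside 4.71% of all genes, and 3 in LL (AT5G58390, EXPA18 and HCHIB), beside 4.34%. The LL count dropped to 1 without replicate 1 or replicate 3 of LL 2 h. These counts, and the shares of the 4 h change that follow, use 0 h or 4 h libraries that the rule selected on and are given as a description. All 2 h libraries lay above all 0 h libraries for 25 genes in HL and 16 in LL, beside 19.3% and 18.4% of all genes. The share of the 4 h log2 fold change that was present at 2 h had a median of 50.0% in HL (-40.5% to 87.8%) and 46.6% in LL (-13.9% to 100.6%), and it was larger in HL for 20 genes and in LL for 16. The log2 fold change of 4 h against 2 h was above 0 in 36 genes of HL and 35 of LL, with medians of 0.69 and 0.67, in a direction that the 4 h limit favours.

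By the mean of both shares, the latest genes were AT3G17070 (-5.2%), AT2G25510 (0.8%), AT3G56020 (10.7%), PGR5 (13.0%) and AT1G24577 (15%), a peroxidase, a ribosomal protein, the cyclic electron flow protein and a pair without a described role. The earliest were AT1G51200 (75.6%), APO2 (71.7%), EXPA18 (70.7%), AT5G58390 (66.2%) and HCHIB (65.8%). The light levels did not always give the same share: ICR1 was at 87.8% in HL and 10% in LL, and EXPA18 at 40.8% in HL and 100.6% in LL. A difference between HL and LL in the 2 h change itself was not detected for any of the 36 genes (lowest adjusted p 0.307, edgeR interaction term over 10349 genes), 2 had an unadjusted p under 0.05, CAD4 and ICR1, and DESeq2 passed 0. The interaction term uses the 0 h libraries that the rule selected on, so these values are a description and nothing is read from them.

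**Figure D3:**
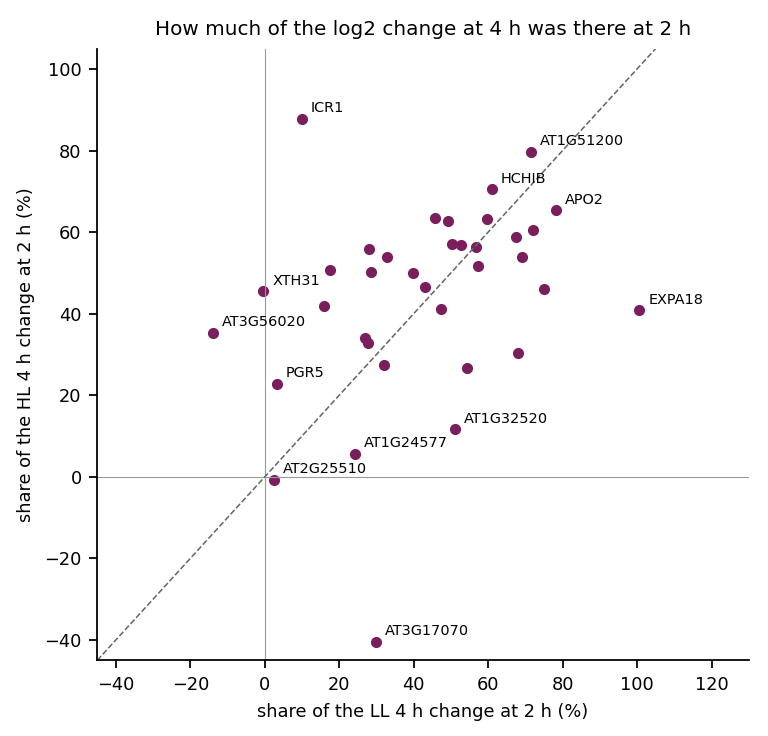
Share of the 4 h log2 fold change that was present at 2 h, in percent, with HL on the vertical and LL on the horizontal axis and 1 point for each of the 36 genes. The dashed line marks equal shares, and the points spread around medians of 50.0% in HL and 46.6% in LL with AT3G17070, ICR1 and EXPA18 farthest from the line.

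The contrast that the choice left free is HL 2 h against LL 2 h, fitted over all 24 libraries and the 10349 genes in both tables. XTH31 was higher in HL, by a log2 fold change of 1.38 ± 0.35 (adjusted p 0.0156), and was the only member called, 1 of 36 beside 2.95% of all genes, a share close to the background. At adjusted p alone, 5 of the 36 were higher in HL, beside 3.93% of all genes, and 0 were lower, beside 1.90% (0 lower also at an unadjusted p under 0.05 and by DESeq2, which put 4 of the 5 past the adjusted p, without PGR5). These shares include genes under the level limit of the rule, which 6059 of the 10349 genes met in both tables. Genes with low counts pass less easily, so the shares are not a like base for the members. The 5 are CAD4 (0.77 ± 0.18, adjusted p 0.00849), PGR5 (0.83 ± 0.22, 0.0224), XTH31, AT2G33250 (0.73 ± 0.19, 0.022) and APO2 (0.47 ± 0.14, 0.0382). The levels of CAD4, PGR5 and XTH31 in each library are given above. AT2G33250 had 85.8, 80.8 and 81.0 CPM in the HL 2 h libraries against 34.0, 70.5 and 46.4 CPM in LL. APO2 had 186, 178 and 213 CPM in HL 2 h against 122, 165 and 132 CPM in LL. For each of the 5, all HL libraries were above all LL libraries.

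At 0 h the same contrast was already above 0 for each of the 5, with a log2 fold change of 0.64 ± 0.37 for XTH31, 0.39 ± 0.23 for PGR5, 0.32 ± 0.14 for APO2, 0.30 ± 0.21 for AT2G33250 and 0.16 ± 0.19 for CAD4, given as values because the rule used those libraries. All HL 0 h libraries of XTH31, APO2 and AT2G33250 lay above those of LL 0 h. Leaving out any 1 of the 6 libraries at 2 h left 1 to 9 members past the adjusted p. CAD4 passed in all 6 such fits and XTH31 in 3. Without replicate 1 or replicate 3 of LL 2 h CAD4 alone passed, without replicate 2, which stood apart, 9 passed, and without replicate 1, 2 or 3 of HL 2 h there were 2, 3 and 2. The call of XTH31 was lost without replicate 1 of HL 2 h and without replicate 1 or replicate 3 of LL 2 h, and 4 members were called without replicate 2 of LL 2 h. Over the 36 genes the median log2 fold change of HL 2 h against LL 2 h was 0.27 (-0.37 to 1.38), beside 0.01 over all genes, with 24 above 0 and 12 below. At 0 h the median was 0.14, beside 0.06. All HL 2 h libraries lay above all LL 2 h libraries for 11 of the 36, beside 12.3% of all genes, and all LL above all HL for 0, beside 8.39%. Those shares again include genes under the level limit.

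Members on the low side of HL at 2 h did not pass the test. Those with the smallest p were AT5G35732 (-0.23 ± 0.18, adjusted p 0.55), AT1G24577 (-0.37 ± 0.36, 0.643), ALDH2C4 (-0.17 ± 0.17, 0.648), AT1G51200 (-0.12 ± 0.13, 0.699) and VTC5 (-0.19 ± 0.22, 0.707). The plot of HL against LL sets each gene's value at 2 h beside that at 0 h.

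**Figure D4:**
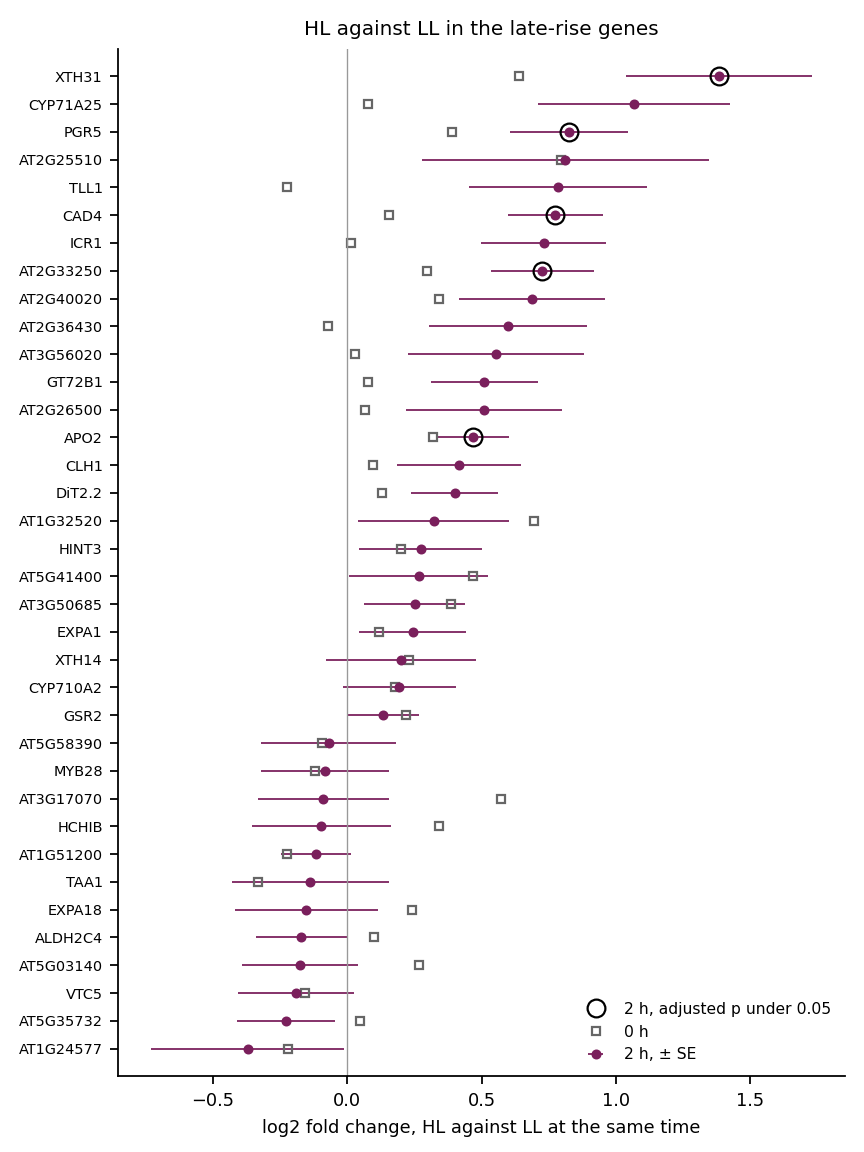
Log2 fold change of HL against LL in the 36 late-rise genes, ordered by the value at 2 h. Filled points with bars are 2 h ± SE, rings mark the 5 genes with an adjusted p under 0.05, and open squares are the values at 0 h. XTH31 stands highest at 1.38 and AT1G24577 lowest at -0.37.

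At 4 h, in libraries that the rule used, the fitted change was larger in HL than in LL for 21 genes and smaller for 15. The widest gaps toward HL were those of CYP71A25 (1.59 ± 0.58 as the difference of the 2 log2 fold changes) and TLL1 (1.38 ± 0.50), and the widest toward LL was that of HCHIB (-0.90 ± 0.37). No member passed the adjusted p for this difference (lowest 0.107, edgeR interaction term over all 24 libraries, 0 by DESeq2), while 448 of 10349 genes did, and 7 members had an unadjusted p under 0.05. The rule required a rise of at least 0.8 in both HL and LL, which limits this difference in advance. Nothing is read from these counts. All HL 4 h libraries lay above all LL 4 h libraries for 13 of the 36, beside 13.6% of all genes, and all LL above all HL for 2 (TAA1 and AT1G51200), beside 9.49%. The plot of both changes places the members among all genes.

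**Figure D5:**
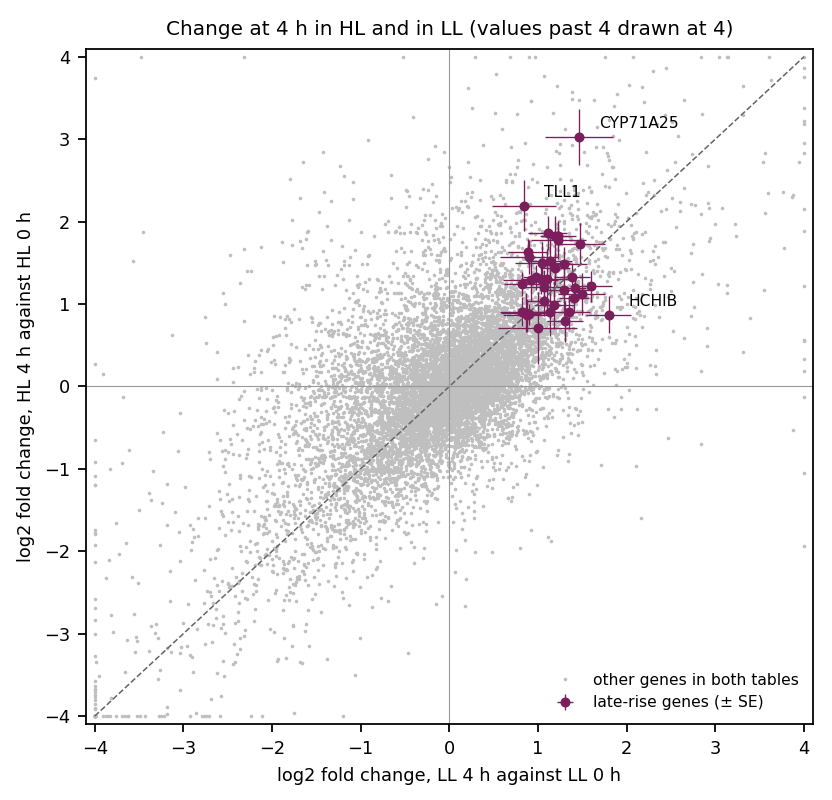
Log2 fold change at 4 h against 0 h, in HL on the vertical and in LL on the horizontal axis, for the 36 late-rise genes with bars of ± SE and, in grey, for the other genes in both tables, with values past 4 drawn at 4. The dashed line marks equal change. CYP71A25 (3.02 in HL and 1.46 in LL) and TLL1 (2.20 in HL and 0.85 in LL) lie above it and HCHIB (0.87 in HL and 1.80 in LL) below it.

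The 250 bases before the annotated start of the 5 genes that passed the adjusted p at 2 h are shown, because they are the members that differed between the HL and LL libraries in the contrast the rule left free. They were read from the RefSeq TAIR10.1 sequence, 5′ to 3′ on the strand of the gene, and capitals mark a match to 1 of the motifs searched. The windows of APO2 and AT2G33250 also overlap the neighbouring annotated gene.
CAD4, chr3:6744127-6744376, plus strand: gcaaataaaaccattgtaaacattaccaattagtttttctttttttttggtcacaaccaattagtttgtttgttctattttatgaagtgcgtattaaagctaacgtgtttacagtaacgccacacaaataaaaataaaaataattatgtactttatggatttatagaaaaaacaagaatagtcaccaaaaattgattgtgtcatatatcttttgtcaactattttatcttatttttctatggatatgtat
PGR5, chr2:2081860-2082109, minus strand: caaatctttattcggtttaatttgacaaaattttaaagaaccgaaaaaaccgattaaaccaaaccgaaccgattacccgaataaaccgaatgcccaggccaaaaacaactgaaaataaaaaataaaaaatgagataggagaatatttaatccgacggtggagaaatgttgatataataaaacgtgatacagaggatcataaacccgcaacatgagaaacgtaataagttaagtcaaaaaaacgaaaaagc
XTH31, chr3:16448845-16449094, minus strand: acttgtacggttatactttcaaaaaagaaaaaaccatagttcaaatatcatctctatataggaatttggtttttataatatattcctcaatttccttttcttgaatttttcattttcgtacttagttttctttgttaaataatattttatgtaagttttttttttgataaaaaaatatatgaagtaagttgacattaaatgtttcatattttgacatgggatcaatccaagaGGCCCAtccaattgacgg
APO2, chr5:23454342-23454591, plus strand: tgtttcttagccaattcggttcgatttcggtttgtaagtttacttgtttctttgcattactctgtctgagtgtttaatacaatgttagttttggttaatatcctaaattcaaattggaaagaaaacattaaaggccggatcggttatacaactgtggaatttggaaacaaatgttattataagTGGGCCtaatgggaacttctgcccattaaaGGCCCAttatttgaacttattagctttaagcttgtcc
AT2G33250, chr2:14097119-14097368, plus strand: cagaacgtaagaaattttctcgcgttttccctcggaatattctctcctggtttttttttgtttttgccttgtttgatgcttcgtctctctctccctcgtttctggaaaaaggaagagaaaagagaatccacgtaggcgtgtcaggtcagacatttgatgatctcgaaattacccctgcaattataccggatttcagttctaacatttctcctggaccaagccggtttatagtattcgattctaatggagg

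The capitals are the site II motif TGGGCC on either strand, with its first base 18 bases before the start in XTH31 and 67 and 37 bases before it in APO2, while the other 3 windows hold none of the 10 motifs. Over all members the windows hold no common motif. Site II lies in 4 of 36 windows (XTH31, APO2, AT3G56020 and AT2G40020), 11.1% beside 16.3% of 10104 promoters of genes in both tables. The W-box TTGACC, read by WRKY factors, lies in 5 (13.9% beside 12.0%), the CCA1-binding site AAAAATCT in 3 (8.33% beside 6.70%), and the morning element CACATG in 3 (8.33% beside 11.3%). The G-box CACGTG lies in 1 (TLL1, 2.78% beside 7.50%), the I-box GATAAG in 1 (2.78% beside 12.9%) and the sulfur-responsive core GAGACA in 1 (2.78% beside 10.3%). The evening element AAAATATCT, the telo-box AAACCCTA and the as-1 core TGACGT lie in 0 of the windows, beside 2.63%, 3.09% and 8.52%. All motifs were searched on both strands, AAAAATCT and AAAATATCT do not match the same bases, and 22 of the 36 windows hold none of the 10. A match is a description of letters only.

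The 4 h limit cuts through a continuous range. The members just inside it, by the smaller of the 2 changes on the scale of the rule, were AT3G50685 (0.80), TLL1 (0.82), AT2G25510 (0.83), AT2G40020 (0.83) and ICR1 (0.83), and the genes just outside it that met all other criteria were AT1G67590 (0.78), AT1G56045 (0.78), AT5G07860 (0.77), AT1G67860 (0.77) and EXPA20 (0.76). A further expansin thus sits next to the limit, and 22 genes in all lay between 0.7 and the limit. Of 394 genes that met the level limit and the 4 h limit at both light levels, 340 were above 0.4 at 1 h in HL or LL and 23 below -0.4. The genes within 0.4 at 1 h are thus the small part of those that were higher at 4 h in both. That limit still leaves room for a smaller change at 1 h.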

How the data were processed

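RNA of 24 libraries (8 groups of 3) was counted by bulk MARS-seq. Per the labels and the methods, the authors trimmed reads with cutadapt, aligned them with STAR 2.4.2a and made gene counts with HTSeq on the Araport 11 annotation. The deposited values are whole-number counts per gene and a normalized signal, which equals those counts divided by a DESeq2 size factor for each library. The deposited tables also hold the authors' log2 fold changes, p-values and adjusted p-values, which were not used here. Strand setting and collapse of molecular identifiers are not given in the sources used here. The highest count of any listed gene was at least 6, so the tables are already filtered. The labels name 3 separate samples a group, and how many seedlings went into an RNA-seq library is not given in the sources used here, so p-values measure the spread between these samples, which may be technical. No replicate pair agreed within counting error (chi-square test).

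The members were found from the normalized signal as log2(value + 1). All tests used counts, in R 4.3.3 with edgeR 4.0.16 (TMM, quasi-likelihood, Benjamini-Hochberg over all genes), fitted per table for times and over 24 libraries for HL against LL. SE is the log2 fold change divided by the root of F. DESeq2 1.42.0, RLE scaling, a filter on low counts, a replicate block and leaving out each library were alternatives, and the code was tested on simulated data. Named genes were the 20 members with the largest smaller rise at 4 h, the 5 with the highest level at 4 h, the 5 with the smallest p in each direction at 2 h, the 5 earliest and 5 latest by share, the 5 on each side of the 4 h limit, members in a list or family, and up to 3 abundant others of each. Text names other members and pathway genes outside that rule, chosen after their values were seen. The members and all lists were chosen with earlier results of these data known, and the pathway lists after the members were known. Names and promoter sequences are from RefSeq TAIR10.1, which matched 11588 of 11747 identifiers. Library totals of 1163870 to 2070855 counts limit the precision of low genes.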

Additional observations from a re-analysis of the deposited data

How the results depend on the processing

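The number of late-rise genes depended on the limits of the rule. It was 66 with no level limit, 58 with a limit of 0.5 at 1 h and 21 with a limit of 1 at 4 h, as looser and stricter limits must give, 24 where every group mean had to reach the level limit, and 31 to 45 without 1 library. Of the 36 genes, 6 were kept without each of the 24 libraries in turn and 30 were lost without at least 1. Without 1 library, members called higher numbered 24 to 29 at 4 h of HL, 21 to 27 at 4 h of LL, 2 to 4 at 2 h of HL and 1 to 4 at 2 h of LL. For HL 2 h against LL 2 h, 0 to 4 were called and 1 to 9 passed the adjusted p alone. The values of 4 named genes changed direction, all of them small: without 1 library, the log2 fold change of GS2 at 4 h of LL ran from -0.199 to 0.015, the log2 fold change of CYP710A1 at 4 h of HL from -0.213 to 0.191 (with 0.005 and 0.107 without HL 0 h replicates 1 and 3), the log2 fold change of CYP83B1 at 4 h of HL from -0.048 to 0.090 (with -0.035 without HL 0 h replicate 1), and the log2 fold change of AT1G51200 at 2 h of HL against LL from -0.211 to 0.032. The cause was not tested. Of the values of named genes, 608 of 640 at 4 h of LL, 604 of 640 at 4 h of HL and 95 of 100 at 2 h kept direction and side of the limits. Same-numbered libraries did not deviate together on average (mean correlation 0.012 over both tables, beside -0.006 for differently numbered ones). Single same-numbered pairs ran from -0.317 to 0.404, with 18 of 84 above 0.1. A replicate block left the counts at 26 and 25 at 4 h of HL and LL and at 3 and 3 at 2 h. For HL 2 h against LL 2 h it left 1 called and 5 past the adjusted p. Depth limits the lowest members, such as AT2G25510 with 2 counts in 1 library.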
